A study of Mus musculus with 8 samples.

Results

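The genes that write, maintain and erase methylation of cytosine in DNA were followed in a pancreatic β-cell line after forced expression of the transcription factor Klf4. They are 8 genes of 55536 in the deposited count table, chosen by symbol: Dnmt1, Uhrf1, Dnmt3a, Dnmt3b, Dnmt3l, Tet1, Tet2 and Tet3. All 8 had counts and all 8 passed the filter on low counts, which left 18266 genes for the test.

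The cells were MIN6, an insulin-producing line from a mouse pancreatic tumour, with the genotype given as WT. A total of 8 libraries of polyadenylated RNA were made, 4 from cells transfected with the empty vector pcDNA 3 (control) and 4 from cells transfected with pGloMyc-Klf4 (Klf4-transfected). All 8 went through the same 48 h lipid transfection, and each of 2 batches held replicates 1 and 2, or 3 and 4, of both groups. By their names the plasmids differ in backbone as well as in Klf4, so that these cannot be told apart. The labels call the replicates biological but do not say whether they were separate cultures, so that p-values measure the spread between these libraries, which may be technical. The extraction text in the labels speaks of islets, while every sample is labelled as MIN6. The labels give neither the share of cells that took up plasmid nor a clone. In bulk RNA, fewer cells expressing a gene and less RNA of it per cell cannot be told apart.

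Vertebrate DNA is methylated mostly on cytosines that precede a guanine (CpG). DNMT3A and DNMT3B place new methyl groups, and DNMT3L, which has no catalytic activity of its own, stimulates them and is known from germ cells and early embryos. DNMT1 copies the pattern onto the new strand at replication and is brought to half-methylated DNA by UHRF1. The TET enzymes oxidise methylcytosine, which leads to its loss by dilution or by base excision repair. In β cells DNMT3A and DNMT1 are known for keeping genes of other cell types and of immature β cells silent.

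Total counts lay between 45417853 and 52731176 per library. Klf4 lay between 36.1 and 42.8 CPM (counts put on 1 library size by TMM factors) with empty vector and between 4532 and 5853 CPM with Klf4. All 10 β-cell markers were present and 6 of them were lower with Klf4, none higher. Over all tested genes 15.5% were lower and 21.1% higher. Log2 fold changes of the 10 markers lay between -0.22 and -0.02. Ins2, an insulin gene that did not pass the test, had 16807 CPM with empty vector and 16534 CPM with Klf4. Markers of other cell types were low but not all level between the groups. The summed level of 12 fibroblast, endothelial and immune markers was 13.1 to 13.9 CPM with empty vector and 32.6 to 39.3 CPM with Klf4, 4 of the 8 tested ones being higher and none lower. With Klf4 the largest part of that sum was Dcn, a fibroblast proteoglycan, at 17.6 CPM. The other higher ones were Col1a1, Pdgfra and Cdh5. Cdh5, Kdr and Adgre1 had no counts with empty vector and 80, 4 and 5 in all with Klf4. For 9 acinar and duct markers the sum was 4.95 to 6.49 CPM and 8.57 to 10.3 CPM, with 2 of 3 tested ones higher and Prss2 and Amy2a5 at 0 in all libraries. For 7 markers of other islet cells it was 59.7 to 89.5 CPM and 56.1 to 96.7 CPM, with 2 of 4 tested ones higher, and most of it was Gcg, which did not pass the test. The part of these markers in the results on the methylation genes was not tested.

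Promoter letters are shown for Dnmt3l and Uhrf1, the 2 members that were called higher in every setting in which they were tested. Windows of 250 bases upstream of each RefSeq start (build GRCm38.p6, gene strand) were searched on both strands for CACACCC and CCCACCC, letters typical of sites of Krüppel-like factors, which are in capitals below. Windows of these members with no more than 16 annotated exonic bases are printed.

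Dnmt3l, second start, chr10:78049592-78049841, plus strand, intronic: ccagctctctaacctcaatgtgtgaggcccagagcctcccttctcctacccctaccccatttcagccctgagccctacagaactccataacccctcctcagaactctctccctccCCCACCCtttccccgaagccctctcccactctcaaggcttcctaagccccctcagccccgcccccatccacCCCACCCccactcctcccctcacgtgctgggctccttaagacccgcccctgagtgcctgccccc

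Dnmt3l, last start, chr10:78055085-78055334, plus strand, intronic: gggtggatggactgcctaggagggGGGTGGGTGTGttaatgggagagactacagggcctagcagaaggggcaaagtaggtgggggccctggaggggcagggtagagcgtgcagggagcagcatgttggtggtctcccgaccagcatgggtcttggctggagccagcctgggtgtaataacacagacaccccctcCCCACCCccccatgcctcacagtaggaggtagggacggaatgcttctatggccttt

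Uhrf1, first start, chr17:56303087-56303336, plus strand, with 16 exonic bases: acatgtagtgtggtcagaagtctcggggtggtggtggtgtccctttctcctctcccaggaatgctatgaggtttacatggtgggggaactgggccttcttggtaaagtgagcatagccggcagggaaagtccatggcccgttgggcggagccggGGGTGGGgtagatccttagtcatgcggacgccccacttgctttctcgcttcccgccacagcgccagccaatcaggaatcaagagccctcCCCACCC

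Uhrf1, second start, chr17:56304063-56304312, plus strand, intronic: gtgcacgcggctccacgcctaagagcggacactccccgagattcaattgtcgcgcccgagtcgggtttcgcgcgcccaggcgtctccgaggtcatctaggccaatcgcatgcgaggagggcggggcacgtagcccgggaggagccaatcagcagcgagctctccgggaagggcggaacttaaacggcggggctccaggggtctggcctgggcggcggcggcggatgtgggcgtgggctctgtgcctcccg

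The second Dnmt3l window held CCCACCC at 2 places. The last held CCCACCC at 2 places and CACACCC at 1, which overlapped one of them. The first Dnmt3l window, at 78042287, held neither. The first Uhrf1 window held CCCACCC at 2 places, one of them ending at the base before the start, and the second Uhrf1 window held neither. Over all members 5 of 15 windows (33.3%) held at least 1 of these letters, belonging to Dnmt1, Uhrf1, Dnmt3l and Tet3, against 21.3% of 32851 windows of the same length in the table. CCCACCC alone was in 15.8% and CACACCC in 6.93% of all windows. The windows also differed in CpG content. The Dnmt3l windows held 3 to 5 CpG, below the median of 6 over all windows, and the second Uhrf1 window held 30. A single window each of Dnmt3b, Tet1 and Tet2 held 21, 15 and 51 CpG and neither of the letters. A match is a description of the letters and not a binding site.

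Across the family, 5 of 8 members passed the test (quasi-likelihood test of edgeR, called at a Benjamini-Hochberg adjusted p under 0.05 among all tested genes), 3 higher and 2 lower with Klf4. Dnmt3l, Uhrf1 and Dnmt3b rose, Tet1 and Dnmt3a fell, and Dnmt1, Tet2 and Tet3 did not pass. The call of Dnmt3b was lost in 15 of 23 alternatives. Over all genes 36.6% were called, 21.1% higher and 15.5% lower. With 8 members, 5 calls against that share is not read as a property of the family. The median log2 fold change of the members was 0.03, against -0.01 over all tested genes. The groups did not overlap for Dnmt3l, Uhrf1, Dnmt3b and Tet1, against 26.1% of all tested genes without overlap.

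**Figure D1:**
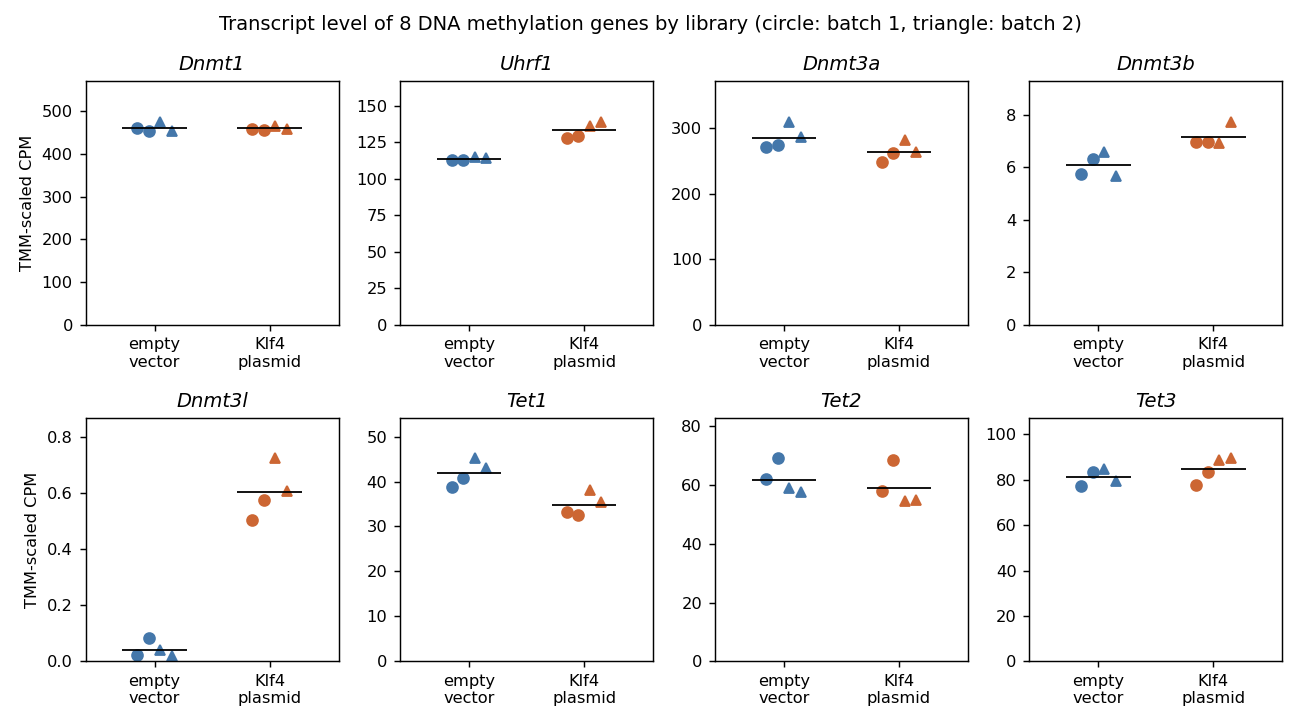
TMM-scaled CPM (vertical axes, each from 0) of the 8 genes in each library, blue for empty vector and orange for the Klf4 plasmid, circles for batch 1 and triangles for batch 2, with black lines at group means (n = 4). The groups stand apart for Dnmt3l, Uhrf1, Dnmt3b and Tet1 and overlap for the other genes.

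Dnmt1 (ENSMUSG00000004099, chromosome 9, 20907209 to 20959888, minus strand, GRCm38) encodes the maintenance methyltransferase. It had 461.3, 453.8, 475.3 and 454 CPM in control replicates 1 to 4 and 458.3, 456.3, 464.7 and 458.7 CPM in Klf4 replicates 1 to 4. The groups overlapped and their means, 461.1 ± 10.1 and 459.5 ± 3.61 CPM (SD, n = 4), differed by less than the spread with empty vector. The log2 fold change was -0.01 (± 0.02 SE) at an edgeR adjusted p of 0.905. With an offset for GC content and length it was -0.06 and passed the test (adjusted p 0.029). Its sign changed under 3 settings, in none of which it passed.

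Uhrf1 (ENSMUSG00000001228, chromosome 17, 56303321 to 56323486, plus strand) encodes the protein that recognises half-methylated CpG and recruits DNMT1. It had 112.9, 113.1, 114.8 and 114 CPM with empty vector and 128.1, 129.1, 136.2 and 139.1 CPM with Klf4. Control values were close together, every Klf4-transfected value was above them, and batch 2 was the higher batch among the Klf4-transfected libraries. The mean rose by 17.1%, from 113.7 ± 0.871 to 133.1 ± 5.35 CPM (SD, n = 4). The log2 fold change was 0.23 (± 0.03 SE) at an edgeR adjusted p of 1.29e-06, 0.19 in batch 1 and 0.27 in batch 2. On the scale of CPM per kilobase of exonic length, Dnmt1 stood 2.34-fold above Uhrf1 with empty vector and 1.99-fold with Klf4. Of the tested genes on either side of Uhrf1, Plin3, a lipid-droplet coat gene, was higher (0.91, adjusted p 0.000581) and Kdm4b did not pass (-0.02, 0.654).

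Because Dnmt1 and Uhrf1 are most used at replication, 20 replication and division genes were read beside them. Of these, 2 were higher, 1 was lower and 17 did not pass, with log2 fold changes between -0.10 and 0.15 and a median of 0.01. The split moved with the scaling, to 4 higher and 0 lower with factors from highly expressed genes and to 1 higher and 4 lower with factors that left out the 10 most abundant genes. With the offset for GC content and length 3 were higher and 4 lower, and without a term for batch none was called. Ccne1, a cyclin of entry into S phase, had a log2 fold change of 0.15 (edgeR adjusted p 0.0149). Rrm2, a subunit of ribonucleotide reductase, had 0.08 (0.0213) and Mcm7, a subunit of the replicative helicase, -0.08 (0.0178). The call of Ccne1 was lost without control replicate 1, 3 or 4 or Klf4 replicate 1 or 4 (adjusted p 0.0516 to 0.129). The list gave 1 call without control replicate 1, and 5 without control replicate 2 or Klf4 replicate 3. The call of Rrm2 was lost without control replicate 1, 2 or 4 or Klf4 replicate 1, 2 or 3 (0.0636 to 0.166).

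Among partners of maintenance methylation most calls were lower, but with factors from highly expressed genes 3 were higher and 2 lower. Of 10 listed genes 9 were tested, 1 was higher, 3 were lower and 5 did not pass, with a median log2 fold change of -0.03. Cdca7, which activates the remodeller HELLS, had 17.5, 17.9, 19.6 and 19.4 CPM with empty vector and 13.3, 13.8, 14.6 and 13.3 CPM with Klf4. The groups did not overlap, and the mean fell from 18.6 ± 1.05 to 13.8 ± 0.615 CPM (SD, n = 4; edgeR log2 fold change -0.44 ± 0.06 SE, adjusted p 1.21e-06). Zbtb24, a zinc-finger factor that activates Cdca7, fell (log2 fold change -0.15, adjusted p 0.00787). That call was lost without a term for batch (edgeR adjusted p 0.0755), in batch 1 alone (0.0674) and in batch 2 alone (0.12). Hells, which opens nucleosomal DNA to DNMT1, fell as well (-0.11, 0.00702), but not with the offset for GC content and length (-0.04, 0.252) or with factors from highly expressed genes (-0.07, 0.0649). Lig1, the ligase of the lagging strand that also binds UHRF1, was higher (0.10, 0.0102). This call was lost without control replicate 2 or 4 or Klf4 replicate 3 (0.0525 to 0.109) and with the same offset (0.121). Uhrf2, the paralogue of Uhrf1, did not pass (-0.03, 0.594), nor did Pcna, the replication clamp (0.05, 0.19).

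Dnmt3a (ENSMUSG00000020661, chromosome 12, 3806007 to 3914443, plus strand), the most abundant of the de novo enzymes, had 271.1, 274.6, 309.8 and 286.8 CPM with empty vector and 248.9, 261.9, 281.5 and 263.9 CPM with Klf4. The groups overlapped across batches, and in each batch both Klf4-transfected libraries lay below both control libraries. The mean went from 285.6 ± 17.5 to 264 ± 13.4 CPM (SD, n = 4; edgeR log2 fold change -0.11 ± 0.03 SE, adjusted p 0.00534, and -0.10 and -0.13 in the batches). Without a term for batch the call was lost (adjusted p 0.139). Its exons share 133 bases with the antisense gene Dnmt3aos, which had 1 count in all.

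Dnmt3b (ENSMUSG00000027478, chromosome 2, 153649450 to 153687730, plus strand) had 5.76, 6.33, 6.57 and 5.68 CPM with empty vector and 6.97, 6.96, 6.92 and 7.74 CPM with Klf4, on 271 to 408 counts. The groups did not overlap. The mean went from 6.08 ± 0.436 to 7.15 ± 0.394 CPM (SD, n = 4; edgeR log2 fold change 0.23 ± 0.08 SE, adjusted p 0.0347, and 0.20 and 0.26 in the batches). The call was lost without control replicate 1 (adjusted p 0.112) or 4 (0.141) and without Klf4 replicate 1 (0.0743), 2 (0.0623) or 4 (0.131). With the replicate number as a block it was 0.0544, and by the DESeq2 Wald test 0.0635.

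The value of Dnmt3b also has to be read with Dnmt3c (ENSMUSG00000082079, chromosome 2, 153696652 to 153729907), a rodent duplicate of Dnmt3b that lies 8922 bases beyond it and methylates young transposons in the male germ line. How reads were shared between the copies is not stated. Dnmt3c had 5.44, 5.73, 6.51 and 5.74 CPM with empty vector and 4.63, 4.57, 4.47 and 4.63 CPM with Klf4, again without overlap (edgeR log2 fold change -0.36 ± 0.09 SE, adjusted p 0.00329). In batch 1 alone this call was lost (0.114). The copies moved in opposite directions, and their sum was 11.9 ± 0.847 CPM with empty vector and 11.7 ± 0.438 CPM with Klf4 (SD, n = 4). Tested as 1 gene, a comparison added after the values were seen, the sum came to -0.03 ± 0.07 (SE) on the log2 scale, with an edgeR adjusted p of 0.799. The share of Dnmt3b in it was 49.7% to 52.5% with empty vector and 60.1% to 62.6% with Klf4. With a count per gene, a shift of shared reads between the copies and an opposite change of the 2 transcripts cannot be told apart.

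Dnmt3l (ENSMUSG00000000730, chromosome 10, 78041947 to 78063622, plus strand), the regulatory subunit, had the largest fold of the 8. It had 1, 4, 2 and 1 counts in control replicates 1 to 4 and 26, 26, 38 and 32 counts in Klf4 replicates 1 to 4. No control library came near a Klf4-transfected one. These counts are 0.0412 ± 0.0288 and 0.602 ± 0.0915 CPM (SD, n = 4). The ratio over the summed counts, 122 against 8, was 14.6, with an exact 95% interval of 7.17 to 34.5 that covers counting error only. The log2 fold change was 3.78 (± 0.46 SE) at an edgeR adjusted p of 5.84e-07, 3.30 in batch 1 and 4.33 in batch 2, a difference that did not pass the interaction test (adjusted p 0.83). Dnmt3l passed the filter on low counts through its Klf4-transfected libraries, and 92.5% of tested genes had a higher average level.

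Neighbours of Dnmt3l were read for overlapping signal. Aire, on the opposite strand, shares 67 exonic bases with it and had 0, 0, 2 and 1 counts with empty vector and 5, 0, 2 and 1 with Klf4. A pseudogene, Dnmt3l-ps1, had at most 2 counts in any library. The next tested gene beyond Dnmt3l, 5680 bases away, is Icosl, the ligand of a T-cell co-stimulatory receptor, named after its values were seen. It had 4.86, 4.85, 3.45 and 3.91 CPM with empty vector and 12.1, 11.1, 12.3 and 12.8 CPM with Klf4 (edgeR log2 fold change 1.50 ± 0.09 SE, adjusted p 9.42e-12). The nearest tested gene on the other side, Pfkl, 31864 bases away, did not pass (0.00, 0.987).

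Per kilobase of exonic length Dnmt3l remained the lowest of the 8 in both groups. It took 0.0754% of the summed level of Dnmt3a, Dnmt3b and Dnmt3l with empty vector and 1.15% with Klf4, while Dnmt3a took 93.4% and 90.8%.

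**Figure D2:**
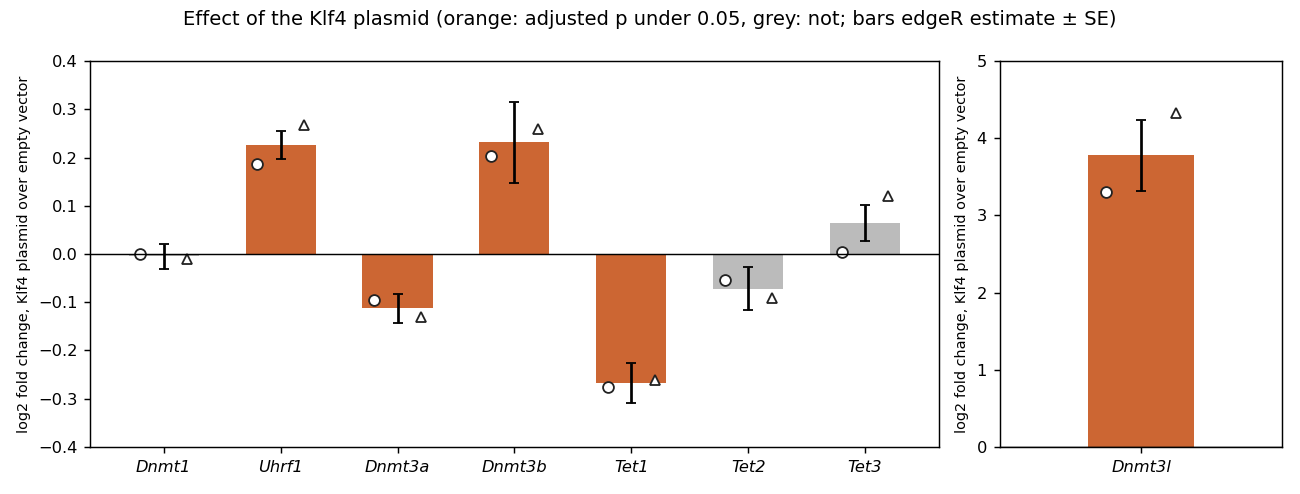
Log2 fold change of the Klf4 plasmid over empty vector (vertical axes, Dnmt3l on its own scale), bars for the edgeR estimate and error bars for ± 1 SE, orange where the adjusted p was under 0.05, with open circles for batch 1 and open triangles for batch 2. Uhrf1 and Dnmt3b lie above 0 and Dnmt3a and Tet1 below it in both batches.

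Tet1 (ENSMUSG00000047146, chromosome 10, 62804570 to 62908996, minus strand) was the only one of the 3 dioxygenase genes to pass the test. It had 38.7, 40.8, 45.2 and 42.9 CPM with empty vector and 33.2, 32.6, 38.1 and 35.4 CPM with Klf4. Every Klf4-transfected library lay below every control library, and batch 2 was higher than batch 1 in both groups. The mean fell from 41.9 ± 2.75 to 34.8 ± 2.5 CPM (SD, n = 4), by 16.9%. The log2 fold change was -0.27 (± 0.04 SE) at an edgeR adjusted p of 1.51e-05, -0.28 in batch 1 and -0.26 in batch 2. The tested genes on either side, Ccar1 and Slc25a16, were also lower (-0.18 for both, adjusted p 4.38e-05 and 0.00351).

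Tet2 (ENSMUSG00000040943, chromosome 3, 133463679 to 133545139, minus strand) had 62, 69.1, 59 and 57.5 CPM with empty vector and 58, 68.6, 54.5 and 54.9 CPM with Klf4. Replicate 2 was the highest in both groups. The log2 fold change of -0.07 (SE 0.05) did not pass the test (edgeR adjusted p 0.237), but did so without control replicate 1 (-0.12, 0.0449) or without Klf4 replicate 2 (-0.13, 0.0173). With the offset for GC content and length it was 0.00.

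Tet3 (ENSMUSG00000034832, chromosome 6, 83362373 to 83459084, minus strand) had 77.3, 83.3, 84.6 and 79.4 CPM with empty vector and 77.6, 83.6, 88.9 and 89.4 CPM with Klf4. The groups overlapped in batch 1 and not in batch 2. The log2 fold change was 0.06 (± 0.04 SE) at an edgeR adjusted p of 0.202, 0.01 in batch 1 and 0.12 in batch 2, a difference that did not pass the interaction test (adjusted p 0.577). In batch 2 alone it passed (0.13, 0.034), and with the offset for GC content and length its sign changed (-0.01).

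Within the TET family, per kilobase, Tet1 took 24.1% ± 1.49 of the summed level with empty vector and 20.8% ± 1.45 with Klf4 (SD, n = 4). Tet3 took 43.2% ± 0.714 and 46.9% ± 2.14, and Tet2 32.6% ± 2.18 and 32.3% ± 3.32.

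None of the 8 members had an effect that differed between batches by edgeR's interaction test, adjusted or at an unadjusted p under 0.05, and none by the DESeq2 Wald test. Over all genes 0.766% were called by the edgeR test.

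On the scale of CPM per kilobase of exonic length, which allows levels of different genes to be compared, the order was the same in both groups. With the empty vector it ran from Dnmt1 (62.5 ± 1.37) over Uhrf1 (26.7 ± 0.204), Dnmt3a (17.2 ± 1.05), Tet3 (4.86 ± 0.204), Tet2 (3.67 ± 0.306), Tet1 (2.71 ± 0.178) and Dnmt3b (1.19 ± 0.0854) to Dnmt3l (0.0138 ± 0.00965; all SD, n = 4). No neighbours in this order overlapped in any library of either group. Dnmt3a stood 3.53-fold above Tet3, the next gene, with empty vector and 3.12-fold with Klf4. The step from Dnmt3b to Dnmt3l shrank from 86.5-fold to 6.95-fold. Exonic length counts every annotated exon, and Uhrf1 and Dnmt3a exchange places without the division by length.

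**Figure D3:**
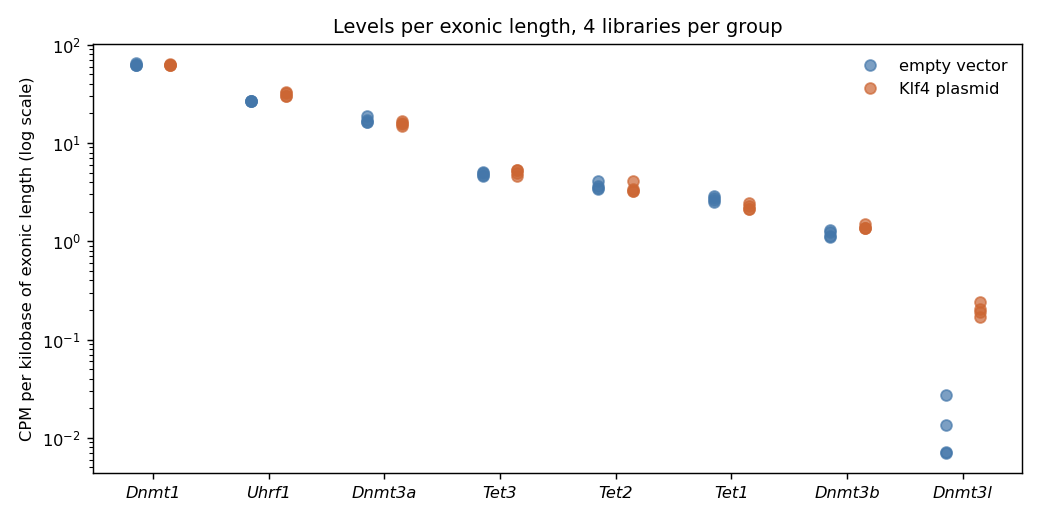
CPM per kilobase of exonic length (vertical axis, log scale) of the 8 genes in order of their control level, with 1 point per library, blue for empty vector and orange for the Klf4 plasmid (n = 4 each). Dnmt3l is the lowest gene in both groups and the one whose groups are farthest apart.

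By root mean square difference of centred log2 CPM over the 8 libraries, the tested genes closest to Tet1 were Gar1 (0.0255), Plekhh2 (0.0307) and Akap11 (0.0318). Their log2 fold changes were -0.25, -0.24 and -0.25, near that of Tet1 by the way they were chosen. Closest to Dnmt3b were Dock11 (0.046), Tbc1d10a (0.0512) and Paox (0.0516), with log2 fold changes of 0.21, 0.27 and 0.26, likewise near that of Dnmt3b by choice. The distances of Tet1 and Dnmt3b from their own means were 0.159 and 0.14 on the same scale.

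The wider machinery was read in lists chosen for their roles. Over the 9 lists, 51 of 114 tested genes passed, 15 higher and 36 lower. Over all tested genes 36.6% passed, 21.1% higher and 15.5% lower. By list the share that passed ran from 15% for replication and division genes to 81.8% for genes that direct de novo methylation. With factors set from highly expressed genes the split over the lists was 23 higher and 20 lower, so the excess of lower calls depended on the scaling. Without a term for batch 23 were called. The scaling from highly expressed genes moved the share of higher calls over all genes from 57.7% to 72.7%.

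Calls among genes that direct de novo methylation were mostly lower, with each scaling tried. Of 12 listed 11 were tested, 2 higher and 7 lower, with a median log2 fold change of -0.11. Kdm1b, the histone demethylase needed for methylation of imprinted genes in oocytes, rose from 23 ± 0.676 to 36.4 ± 2.59 CPM (SD, n = 4; edgeR log2 fold change 0.67 ± 0.05 SE, adjusted p 1.57e-10). Its control libraries lay between 22.4 and 23.9 CPM and its Klf4-transfected libraries between 34.2 and 39.7 CPM. Kdm1b shares 505 exonic bases with Dek on the opposite strand. Morc3, a chromatin ATPase, fell (-0.26, adjusted p 1.12e-06), as did Zfp445, a zinc-finger protein that protects imprints (-0.20, 3.74e-05). Dnmt3c, given above, belongs to this list.

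Of 15 base excision repair and related genes of active demethylation all were tested, 2 higher and 5 lower, with a median log2 fold change of -0.09. With factors from highly expressed genes 2 were higher and 1 lower. The list gave 4 calls without control replicate 3 or 4 and 3 without Klf4 replicate 4, and 4 calls with the replicate number as a block. Tdg, the glycosylase that removes oxidised methylcytosine, did not pass (-0.03, edgeR adjusted p 0.571). Gadd45b, a stress-induced gene linked to demethylation, had 18.2, 17.1, 10.8 and 11.2 CPM with empty vector and 24.6, 25.2, 22.2 and 22.9 CPM with Klf4. The groups did not overlap and control values were lower in batch 2. Its log2 fold change was 0.75 (SE 0.08, adjusted p 4.11e-08), 0.50 in batch 1 and 1.03 in batch 2, which differed by the interaction test (adjusted p 0.0057). Xrcc1, a scaffold of repair, fell (-0.19, 0.000257). Gadd45g was higher (0.16, 0.00145), but not with the offset for GC content and length (-0.02, 0.746). Apex1, the endonuclease after the glycosylase step, was lower (-0.12, 0.0137), with 877 bases (61.7%) of its exonic length shared with Pip4p1 on the opposite strand. That call was lost without control replicate 3 (0.0529) or Klf4 replicate 4 (0.0563).

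Among partners, cofactor enzymes and recruiters of TET proteins, 10 of 14 were tested, 3 higher and 2 lower (median log2 fold change -0.01), and 3 calls were left without control replicate 4. Vdr, the vitamin D receptor, rose from 20.3 ± 1.37 to 64.2 ± 7.9 CPM (SD, n = 4; edgeR log2 fold change 1.65 ± 0.06 SE, adjusted p 2.64e-16). The other calls were small. Ogt, which binds TET proteins, had -0.14 (0.00186), Sinhcaf -0.15 (0.0271) and Hif1a 0.11 (0.0067). Sinhcaf lost its call without control replicate 4 (0.0618) or Klf4 replicate 4 (0.052), and Hif1a without control replicate 2 (0.0535).

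Klf4, the transfected gene, was also listed among the readers of methylated CpG but was not counted. The 9 counted readers included no gene that rose, with 4 lower and 5 that did not pass (median log2 fold change -0.08). The count of lower genes was 8 with the offset for GC content and length, 7 with that offset and the replicate block, and 2 without a term for batch or in either batch alone. Zbtb38 and Zbtb33, zinc-finger readers, had log2 fold changes of -0.19 (edgeR adjusted p 0.000566) and -0.18 (0.00271). Mbd3, a subunit of the NuRD complex, had -0.08 (0.0367). That call was lost without control replicate 3 or Klf4 replicate 2, 3 or 4 (0.0507 to 0.0816).

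In the supply of methyl groups, 15 of 17 genes were tested, none was higher and 5 were lower (median log2 fold change -0.05). With factors from highly expressed genes 2 were higher and 2 lower. Mthfd1 and Mtr, which carry and transfer folate-bound carbon units, had log2 fold changes of -0.16 (edgeR adjusted p 0.00012) and -0.15 (0.00667). The serine hydroxymethyltransferases Shmt1 and Shmt2 had -0.10 (0.0212) and -0.09 (0.0116). The call of Shmt1 was lost without control replicate 3 (0.0516) or Klf4 replicate 4 (0.075). The list gave 3 calls without control replicate 3. Mat2a, which makes the methyl donor S-adenosylmethionine, did not pass (-0.06, 0.16).

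**Figure D4:**
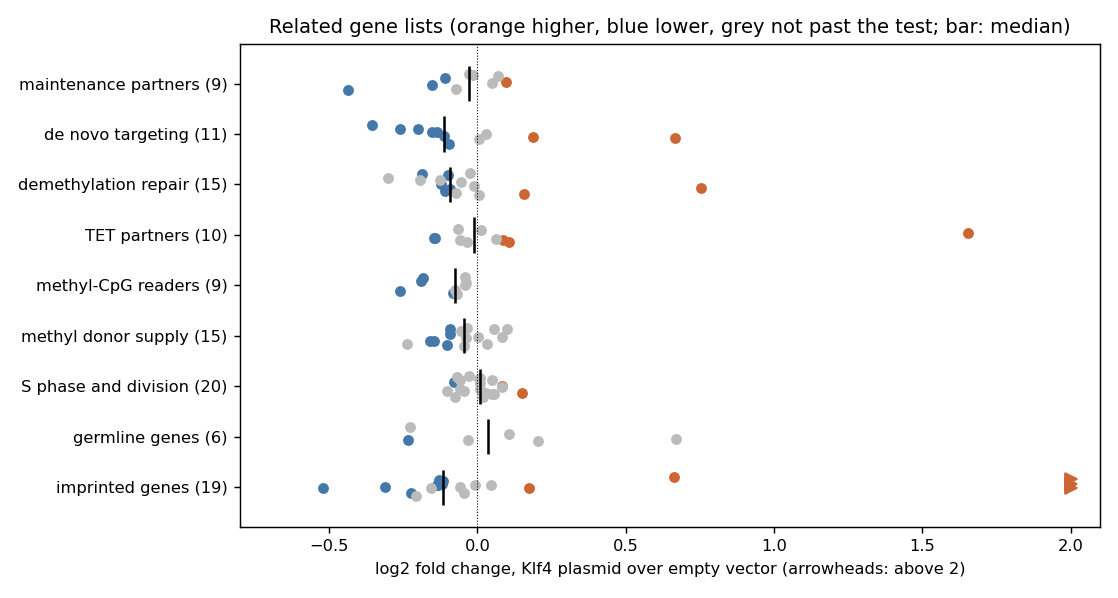
Log2 fold change of the Klf4 plasmid over empty vector (horizontal axis) for the tested genes of 9 related lists, with the number tested in brackets, orange for higher, blue for lower and grey for genes not past the test, and a black bar at each list's median. Arrowheads at the right edge are 3 imprinted genes with log2 fold changes above 2.

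Methylation itself was not measured, and genes whose silence is known to rest on it were read as transcripts only. Of 18 germline genes known for being held silent by promoter methylation, 17 had a count in some library and 6 passed the filter. None of these 6 was higher, but not all were silent with empty vector. Brdt, Rhox5 and Tex101 had means of 8.27, 4.85 and 2.55 CPM there, and Dazl, Taf7l and Ddx4 had 0.351, 0.336 and 0.28 CPM. The filter left out 2 genes whose groups did not overlap, named after their values were seen. Mael, a gene of transposon silencing, had no counts with empty vector and 14, 8, 9 and 13 counts with Klf4. Sycp3, a gene of the meiotic chromosome axis, had 7, 2, 1 and 4 counts with empty vector and 12, 8, 18 and 38 with Klf4. It shares 660 exonic bases (52.2% of its exonic length) with Chpt1 on the opposite strand. Without the filter 3 of the 17 passed the test, with Mael (edgeR adjusted p 6.37e-07) and Sycp3 (0.000118) higher and Brdt (0.0233) lower. Brdt, a testis bromodomain gene, was lower (log2 fold change -0.23, edgeR adjusted p 0.0371). Its call was lost without control replicate 2 or 3 or Klf4 replicate 2 or 4 (0.0556 to 0.134) and with the replicate number as a block (0.0505). The list gave 2 calls without control replicate 1 or 4.

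Imprinted genes, which are expressed from 1 parental copy under control of inherited methylation, held the largest changes of the 9 lists. Of 20 listed 19 were tested, 5 higher, 8 lower and 6 not past the test, with a median log2 fold change of -0.12. All 5 higher genes are named below. The 8 lower ones, with log2 fold changes down to -0.52, are not. H19, a maternally expressed non-coding RNA, had 0, 0, 0 and 1 counts with empty vector and 42, 30, 77 and 104 counts with Klf4. On the summed counts this was a ratio of 241.8, with an exact 95% interval of 43 to 9587 that covers counting error only (log2 fold change 7.33, edgeR adjusted p 1.49e-10). Igf2, its paternally expressed neighbour, named after its values were seen, had a log2 fold change of 0.17 (0.00309), and 62.8% of its exonic length is shared with another annotated gene. With the offset for GC content and length its call was lost (0.0766).

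Mest, a paternally expressed gene, had 20, 13, 18 and 11 counts with empty vector and 111, 91, 192 and 172 with Klf4 (edgeR log2 fold change 3.08 ± 0.23 SE, adjusted p 1.47e-10). It shares 912 exonic bases with Copg2 on the opposite strand. Phlda2, a maternally expressed growth regulator of placenta, had 0, 4, 3 and 10 counts with empty vector and 50, 22, 26 and 50 with Klf4 (3.03, SE 0.49, adjusted p 3.08e-05). Cdkn1c, a maternally expressed cell-cycle inhibitor, rose from 3.35 ± 0.812 to 5.28 ± 0.716 CPM (SD, n = 4; 0.66, SE 0.10, 1.63e-05), with 30.6% of its exonic length shared with an antisense gene. The groups did not overlap for any of these 4 genes. H19 and Phlda2 passed the filter on low counts through their Klf4-transfected libraries. H19, Mest and Phlda2 stayed below 4 CPM in all libraries. Of the 8 tested fibroblast, endothelial and immune markers given above, 4 were also higher and 4 did not pass the test. The part of these markers in the changes of imprinted genes was not tested.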

How the data were processed

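The values are whole-number read counts per gene, 1 column per library, which the authors deposited without normalisation. Per the submitters' processing notes, FastQC, STAR, featureCounts and edgeR were used with build mm10; versions and the strand setting are not given in the sources used here. All 55536 pairs of gene identifier and symbol matched GENCODE M21 (GRCm38), which gave coordinates and exonic lengths; promoter windows came from RefSeq (GRCm38.p6), with all 8 members matched.

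Counts were analysed with edgeR 4.0.16 and limma 3.58.1 in R 4.3.3, as in the series' description. Genes were kept by filterByExpr (minimum count 10), libraries were scaled with TMM factors, and batch and plasmid entered a linear model that was tested by quasi-likelihood. P-values were adjusted over all 18266 tested genes. Standard errors are the log2 fold change divided by the root of the F statistic. Intervals on low counts are exact binomial ones. The procedure was tested on simulated data. Figures were drawn with matplotlib 3.10.9.

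Members and lists were chosen with earlier results of these data known. Named genes are all members, up to 4 called genes of each list with the largest change, and the 3 genes closest to each of 2 members. Uhrf2, Pcna, Tdg, Mat2a, Igf2, Mael, Sycp3 and the neighbours of members were named after their values were seen. The values of 1 gene of these lists are not reported here.

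Same-numbered libraries of the groups, numbered by the sample titles, deviated together, with correlations of 0.459 to 0.614 over 10485 genes. Other pairs of the same batch gave 0.528, and after batch means were removed the values were -0.05 and 0.08, so the numbers pair libraries through batch, which is in the model. Replicates were not copies of one library (chi-square per degree of freedom 3.96 to 21.1 within groups).

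Alternatives were no batch term, the replicate number as a block, DESeq2 1.42.0 size factors and Wald test, limma-voom, other filters, other scalings, an offset for GC content and length (span 0.3), an adjusted p under 0.01, each batch alone, omission of each library, and the sum of Dnmt3b and Dnmt3c, added after the data were seen.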

Additional observations from a re-analysis of the deposited data

Results flagged for a closer look

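Among 78 groups of 4 libraries checked for a library far from the others, 3 stood out, where chance gives about 3.9. Klf4-transfected replicate 4 had 7.74 CPM of Dnmt3b, above 6.92 to 6.97 CPM in the other Klf4-transfected libraries, and without it the call of Dnmt3b was lost (edgeR adjusted p 0.131). Control replicate 3 had 162.2 CPM of Rrm2 against 153.9 to 154.7 CPM. Control replicate 4 had 0.0207 CPM of H19, which is 1 count, against 0 in the others.

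The effect on Gadd45b differed between batches, by 0.53 on the log2 scale (batch 2 minus batch 1, edgeR interaction test, adjusted p 0.0057). By the same test Klf4 itself differed, with 6.79 in batch 1 and 7.16 in batch 2 (adjusted p 0.0057). So did the β-cell marker Mafa (-0.05 and -0.30, 0.00817) and the division gene Mki67 (-0.17 and 0.05, 0.0238). The part of these differences in the results on the members was not tested.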

How the results depend on the processing

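Over 23 alternatives, Uhrf1 and Tet1 kept their direction and passed the test in all, with log2 fold changes of 0.17 to 0.28 and -0.30 to -0.20, and Dnmt3l did so in the 22 in which it was tested (3.30 to 4.36). Dnmt3a lost its call in 1 and Dnmt3b in 15. In 1 of these, with Dnmt3b and Dnmt3c summed, the sign of Dnmt3b changed (-0.027). Without a batch term 3 members, 23 genes of the related lists and 4116 of all genes were called, against 5, 51 and 6684. The related lists gave 33 calls at an adjusted p under 0.01 and 27 in batch 1 alone. Leaving out 1 library gave 4 to 5 members, 41 to 53 list genes and 5889 to 7074 genes. With the replicate block 4 members, 45 list genes and 6284 genes were called, and apart from Dnmt3b and Brdt it ended no call of a member or of a list gene named here. Signs changed for Dnmt1 with a filter at 1 CPM (0.00558), with factors from highly expressed genes (0.0295) and in batch 2 alone (0.00193); for Tet2 with the offset for GC content and length (0.0017), also with the replicate block (0.000941); for Tet3 with that offset (-0.0122), also with the block (-0.0117), and in batch 1 alone (-0.000276); and for Gadd45g with that offset (-0.0181), also with the block (-0.018). The order of levels per length was the same with the longest transcript as length, an alternative added after the data were seen, and 6 of 8 members kept their rank on unscaled CPM. Other causes of these differences were not tested. At 1 to 4 counts per control library the size of the Dnmt3l change is limited by depth.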
